A study of Mus musculus with 50 samples.

Results

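The genes described here copy chromosomal DNA or make its building blocks. They are 36 named genes, sorted by what their proteins do: 6 subunits of the MCM helicase, 5 factors that recognise origins and load the helicase, 6 that switch it on, 8 polymerase and primase subunits, 6 for the sliding clamp and its loader, 2 that finish the lagging strand and 3 that supply deoxynucleotides. A probe set annotated to 1 gene measured 35 of them, out of 22180 genes measured in this way. Rfc4, a subunit of the clamp loader, was read by a probe set shared with Eif4a2 and was left without a value. A gene with several such probe sets is given by the probe set of highest mean. No member had a mean under 4.09 log2, the 25th percentile of the means of all probe sets on the array. The 18023 genes at or above that limit were tested.

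RNA was measured on 50 Affymetrix arrays, 1 for each biopsy of a mammary tumour that arose spontaneously in a female mouse. All mice carried MMTV-Erbb2, a transgene that places this receptor tyrosine kinase under a viral promoter active in mammary epithelium, and all came from the cross of C57BL/6J x FVB/NJ hybrids back to FVB/NJ. The biopsies preceded chemotherapy, for which the labels name docetaxel in the treatment field and doxorubicin in the title. There was 1 group, so the results are levels in tumours and relations over the 50 tumours. It is not known whether Erbb2 signal on the array comes from the transgene or from the mouse's own gene. The p-values measure the spread between these samples.

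Values are log2 after RMA, a procedure that corrects background, makes the arrays' distributions alike and summarises the probes of a set. The number of arrays limits the precision. Averaged over the other arrays, the correlation of an array had a median of 0.978, and 3 arrays stood apart at 0.916 (mid79), 0.931 (mid60) and 0.954 (mid100). Tumour mid79 was at 8.61 log2 for the epithelial marker Epcam, against a median of 11.5 over tumours, and at a mean of 11.04 log2 over 9 adipocyte markers, against a median of 5.94. Tumour mid60 was at 9.13 log2 over 9 markers of skin and squamous cells, against a median of 4.8, and mid100 at 10.75 log2 over 9 skeletal muscle markers, against a median of 5.33. In such bulk RNA, fewer cells of a type and less RNA per cell cannot be told apart. Results that rest on these arrays are given with and without them.

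Before S phase, the origin recognition complex with Cdc6 and Cdt1 loads rings of Mcm2 to Mcm7 onto DNA. Cdc45 and the GINS complex then turn each ring into a moving helicase. Primase with polymerase alpha lays down primers, polymerases delta and epsilon extend them on the clamp Pcna, and Fen1 and Lig1 join the lagging-strand pieces. E2F transcription factors, held back by the RB family, are known to switch on many of these genes as cells leave G1, and in tumours their RNA is read as a sign of cycling cells.

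RefSeq promoter windows on GRCm38.p6, from 250 bases before to 50 after the start of the gene, were found for 29 of the 36 genes. E2F letters (TTTCCCGC, TTTGGCGC, TTTCGCGC or TTTGCCGC, on either strand) were present in windows of 13 of these 29 genes, or 44.8%, against 704 of 27025 genes in the table, or 2.6%. The CHR letters TTTGAA or TTCGAA, which mark promoters of many later cell cycle genes, were in 24.1% of the matched members and 21.7% of all genes. The NF-Y letters CCAAT were in 65.5% of members and 41.1% of all genes. A match is a description of letters and says nothing of whether a factor binds there. The 250 bases before the start are printed for 5 members that mark the range: Mcm6 and Mcm5 have overlapping E2F letters and tracked the other members closely, Orc1 has E2F letters and tracked them least, Mcm2 tracked them most and has CHR but no E2F letters, and Rfc1 has neither E2F nor CHR letters. The windows are chr1:128359706-128359955 on the minus strand for Mcm6, chr8:75109259-75109508 on the plus strand for Mcm5, chr4:108579204-108579453 on the plus strand for Orc1, chr6:88898781-88899030 on the minus strand for Mcm2 and chr5:65335640-65335889 on the minus strand for Rfc1. Each reads 5′ to 3′ on the gene's strand, with E2F or CHR letters in capitals.
Mcm6: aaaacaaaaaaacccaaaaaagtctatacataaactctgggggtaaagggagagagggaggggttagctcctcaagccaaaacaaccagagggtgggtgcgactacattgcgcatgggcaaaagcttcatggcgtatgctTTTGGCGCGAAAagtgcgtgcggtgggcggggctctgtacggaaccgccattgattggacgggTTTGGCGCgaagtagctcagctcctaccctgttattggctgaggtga
Mcm5: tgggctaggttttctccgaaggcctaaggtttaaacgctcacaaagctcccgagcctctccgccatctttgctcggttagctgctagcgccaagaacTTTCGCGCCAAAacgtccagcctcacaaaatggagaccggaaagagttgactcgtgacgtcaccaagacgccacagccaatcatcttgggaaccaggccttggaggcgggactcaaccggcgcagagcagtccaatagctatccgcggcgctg
Orc1: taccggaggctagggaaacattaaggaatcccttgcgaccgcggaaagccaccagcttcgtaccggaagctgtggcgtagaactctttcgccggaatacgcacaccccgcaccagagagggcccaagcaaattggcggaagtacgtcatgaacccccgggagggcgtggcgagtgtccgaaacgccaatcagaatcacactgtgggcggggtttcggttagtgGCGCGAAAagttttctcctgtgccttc
Mcm2: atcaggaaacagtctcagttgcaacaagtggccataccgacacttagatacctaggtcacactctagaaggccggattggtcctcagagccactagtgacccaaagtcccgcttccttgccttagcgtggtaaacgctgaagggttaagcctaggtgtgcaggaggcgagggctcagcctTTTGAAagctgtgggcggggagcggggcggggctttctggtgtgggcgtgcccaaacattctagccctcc
Rfc1: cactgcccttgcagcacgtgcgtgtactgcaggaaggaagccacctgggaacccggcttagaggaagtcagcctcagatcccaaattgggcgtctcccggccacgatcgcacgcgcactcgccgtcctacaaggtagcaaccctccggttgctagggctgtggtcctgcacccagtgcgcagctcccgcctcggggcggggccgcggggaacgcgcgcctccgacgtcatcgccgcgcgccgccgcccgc
In Mcm6 the E2F letters start 110, 106 and 47 bases before the start of the gene, and the first 2 overlap. In Mcm5 they start 153 and 149 bases before it and overlap too, in Orc1 27 bases before it, and the CHR letters of Mcm2 start 70 bases before it. The median of the mean correlation with the other members, described below, was 0.63 over the 13 measured members with E2F letters and 0.62 over the 15 measured members with a window but without them. The mean correlations ran from 0.22 to 0.7 with E2F letters and from 0.26 to 0.72 without.

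The replication genes varied between tumours more than most genes did. The median SD was 0.342 log2 over the 35 members and 0.228 log2 over all genes tested. Between the 5th and 95th percentiles of tumours, 19 of 35 members differed by at least 2-fold, against 23.8% of all genes tested. Without mid79, mid60 and mid100 the count was 16 of 35, with a median SD of 0.312 log2 for members and 0.206 log2 for all genes.

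All 6 MCM helicase subunits were among the members with at least a 2-fold range. Mcm2 was lowest at 6.46 log2 in mid79, had a median of 7.79 and was highest at 8.77 in mid47, and its 5th and 95th percentiles lay 2.83-fold apart. Mcm6 ran from 6.69 log2 in mid79, through a median of 8.7, to 9.57 in mid85, a 2.56-fold range between the same percentiles. Mcm3 ran from 6.57 log2 in mid117, through a median of 7.54, to 8.52 in mid85. The subunits form 1 hexamer, and mid85 was the highest tumour for 4 of them, Mcm3, Mcm4, Mcm5 and Mcm6. Mcm7, on chromosome 5, was instead highest in mid7 at 9.32 log2, against a median of 8.43 and a lowest value of 7.08 in mid79. The folds of Mcm3, Mcm4, Mcm5 and Mcm7 lay between 2.3 and 2.42.

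The factors that mark and license origins split into steady and variable genes. Orc1, the largest subunit of the origin recognition complex, was the steadiest member, with a lowest value of 4.64 log2 in mid186, a median of 4.86 and a highest value of 5.22 in mid47. Its 1.26-fold range and its SD of 0.11 log2 stand close above the low limit of 4.09, where RMA values are compressed. Orc2 (median 6.68 log2, 1.67-fold) and Orc6 (median 6.98 log2, 1.58-fold) were also narrow. Orc2 was the only member that was highest in mid79, at 7.3 log2, against a lowest value of 6.28 in mid42. The loading factors ranged more widely: Cdc6 was at 4.59 log2 in mid79, had a median of 5.99 and reached 7.01 in mid47. Cdt1, its partner in loading, ran from 5.92 log2 in mid79, through 6.84, to 7.87 in mid85.

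Among the genes that activate the helicase, Gins1 spanned the most, from 4.34 log2 in mid54, through a median of 5.35, to 6.49 in mid105. Mcm10, which helps the loaded helicase to open DNA, ran from 5.63 log2 in mid79, through 6.46, to 7.39 in mid105. Gins1 and Mcm10 each had a 2.43-fold range between the 5th and 95th percentiles, and Cdc45 a range of 2.01-fold. Gins4 differed from its 3 partners in the complex: its lowest value, 7.79 log2, was in mid60 and not in mid79 or mid54 as theirs were, its median was 8.79 and its highest value, 9.18, was in mid2. Its range of 1.59-fold compares with 1.94-fold for Gins2 and 1.85-fold for Gins3.

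Primase and polymerase epsilon held the widest ranges among the enzymes that make DNA. Prim1, the catalytic primase subunit, was at 5.69 log2 in mid79, had a median of 7.81 and reached 8.85 in mid7, a 3.11-fold range. Pole2, a subunit of the leading-strand polymerase, ran from 5.9 log2 in mid79, through 7.56, to 8.78 in mid105, a 3.72-fold range. Pole, the catalytic subunit of that enzyme, ran from 5.91 log2 in mid79, through 7.12, to 8.75 in mid7, where the next highest tumour was mid85 at 8.01. The polymerase delta subunits were narrower. Pold1, its catalytic subunit, had a 1.55-fold range (lowest 6.28 log2 in mid54, median 6.74, highest 7.31 in mid105), and Pold2 a 2.15-fold range. Prim2, Pola1 and Pola2, which complete the primase complex, had ranges of 1.95-fold, 2.02-fold and 1.77-fold.

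Pcna, the sliding clamp, ran from 8.8 log2 in mid79, through a median of 9.85, to 10.59 in mid85, a 2.04-fold range. The 4 measured subunits of its loader, Rfc1, Rfc2, Rfc3 and Rfc5, lie on chromosome 5, and each was highest in mid7. Rfc1, the large subunit, was the narrowest at 1.56-fold, with 7.46 log2 in mid9, a median of 7.96 and 8.74 in mid7. Of the lagging-strand enzymes, the flap nuclease Fen1 had a 1.6-fold range and the ligase Lig1 a 1.87-fold range, and both were lowest in mid79.

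Rrm2, the small subunit of ribonucleotide reductase that is made in S phase, varied the most of all members. It was at 5.56 log2 in mid79, had a median of 7.68 and reached 9.21 in mid7, and its 5th and 95th percentiles lay 5.19-fold apart. Its partner Rrm1, the large subunit, ran from 7.68 log2 in mid79, through 9.14, to 9.8 in mid105, a 2.12-fold range. Tyms, which makes thymidylate, ran from 6.25 log2 in mid79, through 7.44, to 8.61 in mid7. Rrm2 also kept an SD of 0.65 log2 without the 3 arrays, against 0.71 with them.

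**Figure D1:**
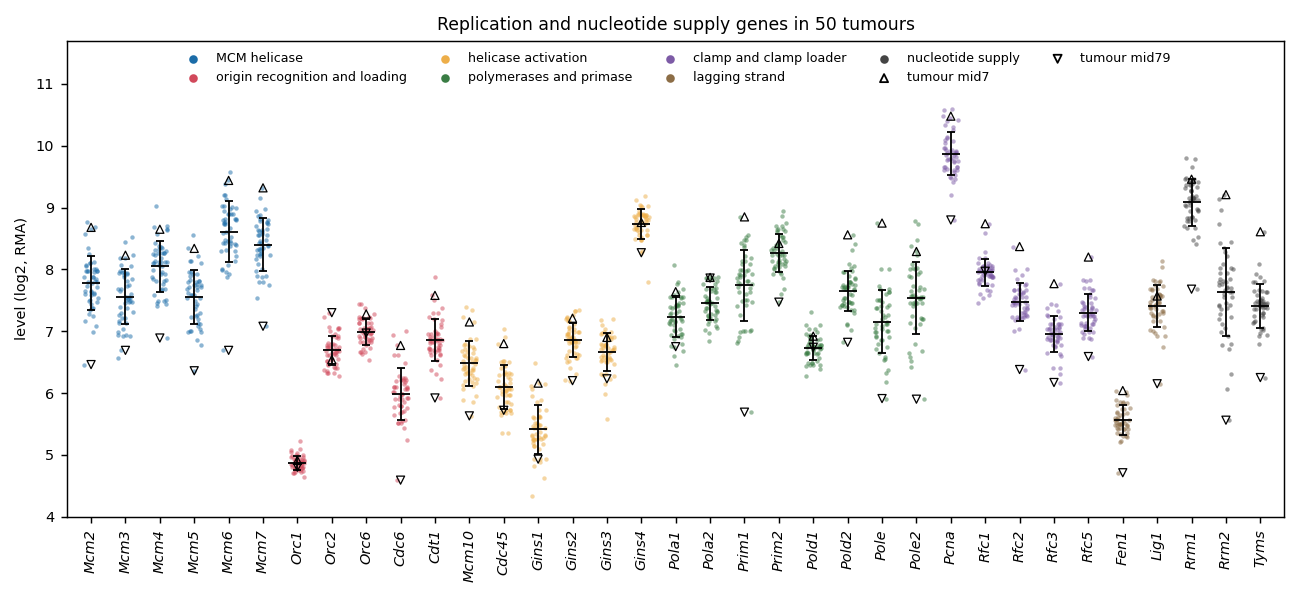
Each point is a tumour and each column a member, coloured by role; the vertical axis is the log2 level, bars are the mean and SD over 50 tumours, and triangles mark mid7 (up) and mid79 (down). Rrm2, Prim1 and Pole2 spread widely, Orc1 hardly spread, and mid79 lay at the bottom of most columns but at the top for Orc2.

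The members rose and fell together over the tumours. Over their 595 pairs the median Pearson's r was 0.617, and 402 pairs were over 0.5, while the median over all 162405253 pairs of tested genes was 0.003. These values share the same arrays and normalisation, so they are a description with no test. Without the 3 arrays the member median was 0.61, with Spearman's rho it was 0.583, and with the linear part on Mki67 removed from every member it was 0.467.

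The MCM subunits were the tightest group, with r between 0.71 and 0.91 within the group and a median of 0.83. Nucleotide supply followed at a median of 0.76, then clamp and loader at 0.7, polymerases and primase at 0.64 and helicase activation at 0.51. The origin and loading group was loosest at 0.29, with Fen1 and Lig1 at 0.61. Without the 3 arrays this order changed below the MCM subunits at 0.81: polymerases and primase were at 0.71, nucleotide supply at 0.69, clamp and loader at 0.66, origin and loading at 0.53, helicase activation at 0.47 and the lagging-strand pair at 0.45. The closest pairs crossed these roles: Mcm2 with Cdc6 at 0.938, Mcm2 with Mcm10 at 0.919 and Mcm2 with Rrm2 at 0.907. Averaged over the other 34 members, r was 0.72 for Mcm2, the highest, and at least 0.69 for Mcm5, Mcm6, Cdc6 and Pole. The lowest averages were those of Orc1 at 0.22, Orc2 and Gins4 at 0.26, and Rfc1 at 0.29. For Orc2 the average was 0.46 without the 3 arrays, for Gins4 it was 0.17. Only 4 of 595 pairs were below 0, the lowest being Gins4 with Pold1 at -0.07.

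**Figure D2:**
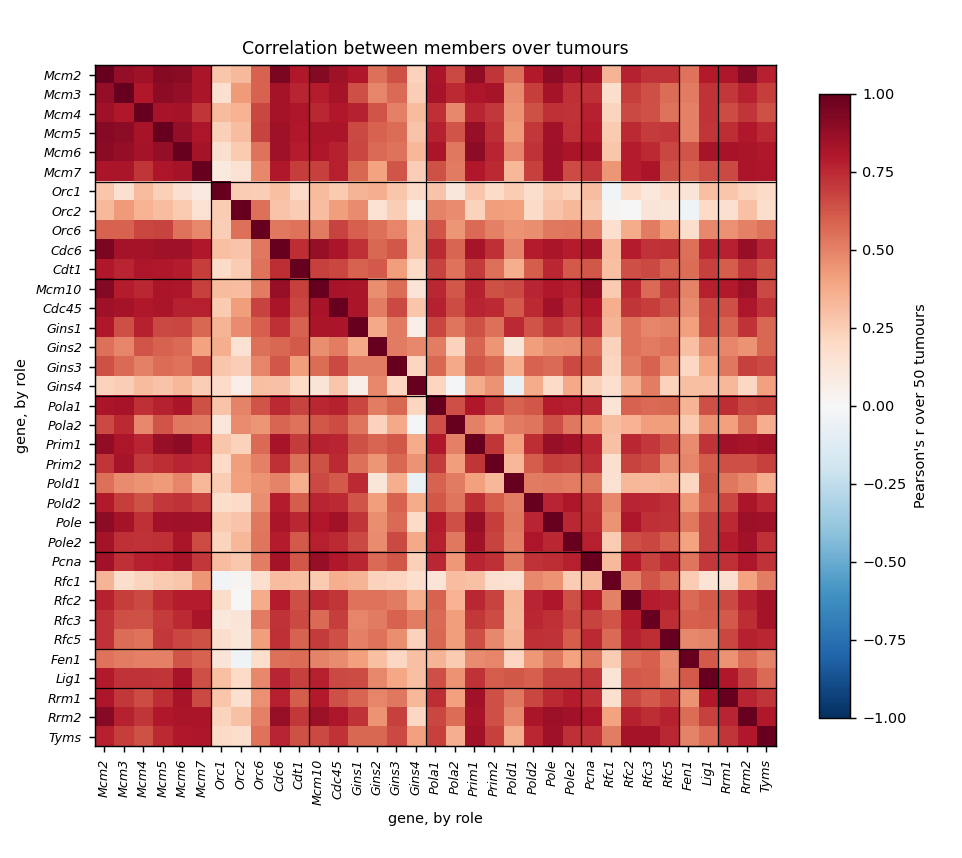
Each cell is Pearson's r between a pair of members over 50 tumours, from blue (-1) to red (1), with the members ordered and boxed by role on both axes. The pale rows and columns are Orc1, Orc2, Gins4 and Rfc1, while the MCM block is dark, with r between 0.71 and 0.91.

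Known partners were then tested pair by pair. There were 22 pairs with both genes measured, and 18 passed a two-sided permutation test after adjustment over the 22, all with positive r. The test sets each pair against no relation, and does not ask whether partners are closer than other genes of the list. Over all 595 pairs of members, partners or not, the median r was 0.617, so the passes do not single out partners. The smallest p that the permutations can give is 1e-05. Mcm2 with Mcm5, neighbours in the ring, had r = 0.906 (rho 0.883, adjusted permutation p 1.83e-05), and r = 0.887 without the tumours mid79 and mid47 that lie farthest from the Mcm2 median. Cdc45 with Mcm10 had r = 0.822 (rho 0.803, adjusted permutation p 1.83e-05), and the thymidylate pair Tyms with Tk1, the thymidine kinase of the salvage route, had r = 0.804 (rho 0.77, adjusted permutation p 1.83e-05). The large and small subunits of ribonucleotide reductase followed each other at r = 0.762 (rho 0.687, adjusted permutation p 1.83e-05).

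The pair that joins the S phase small subunit to the inducible one did not pass. Rrm2b, a p53 target that supplies reductase outside S phase, had r = -0.0138 with Rrm2 (rho 0.102, adjusted permutation p 0.925). The other pairs that missed the threshold were Orc1 with Orc2 at r = 0.253 (adjusted permutation p 0.0882), Gins3 with Gins4 at 0.215 (0.145) and Pcna with Cdkn1a at 0.114 (0.452). Orc1 with Orc2 passed without the 3 arrays (r = 0.316, adjusted permutation p 0.0355) but not without mid47 and mid29 (r = 0.154, adjusted permutation p 0.312). Gins3 with Gins4 passed without mid54 and mid36 (r = 0.332, adjusted permutation p 0.0274) but not without the 3 arrays (r = 0.0539, adjusted permutation p 0.719). Between 17 and 19 pairs passed under the alternatives tried. Fen1 with Lig1, at r = 0.613, did not pass when each gene was given by its probe set of largest SD. Pcna with Rfc1, at r = 0.32, did not pass after further quantile normalisation. Orc1 with Cdc6, at r = 0.3 and adjusted permutation p 0.0427, fell to r = 0.18 without mid47 and mid29 and no longer passed. Gins1 with Gins2, at r = 0.379, was at 0.291 without mid105 and mid54 and no longer passed, while Cdt1 with its inhibitor Gmnn, at r = 0.624, kept its call under all 6 alternatives.

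To set the members against proliferation, every tested gene was regressed on the level of Mki67, a nuclear protein of cycling cells that is no member. Mki67 itself ran from 7.54 log2 in mid79, through 10.12, to 10.83 in mid105. Of 35 members, 29 were called higher with Mki67 and 0 lower (limma adjusted p under 0.05, with 0 lower also at an unadjusted p under 0.05), where 9.01% of all genes tested were called higher and 7.54% lower. The 6 that were not called were Orc1, Orc2, Orc6, Gins4, Pola2 and Rfc1. The median slope was 0.202 log2 per SD of Mki67 over members and 0.008 over all genes.

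By role, all 6 MCM subunits, all 3 nucleotide supply genes and both lagging-strand enzymes were called higher, as were 7 of 8 polymerase and primase genes, 5 of 6 helicase activators, 4 of 5 clamp and loader genes and 2 of 5 origin genes. Rrm2 had the steepest slope, 0.52 ± 0.068 log2 per SD of Mki67 (SE, n = 50, limma adjusted p 1.18e-07). Prim1 had a slope of 0.44 ± 0.054 (limma adjusted p 2.24e-08) and Pole2 one of 0.41 ± 0.059 (limma adjusted p 1.26e-06). Rrm1, with a slope of 0.32 ± 0.029, had the smallest adjusted p of the members, 1.02e-12. Orc2 was the only member with a negative slope, -0.017 ± 0.035 (limma adjusted p 0.796).

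The counts were smaller with some tumours left out. Without mid79, mid60 and mid100, 24 members were called, where 2.5% of all genes were. Without mid79 and mid54, the tumours farthest from the Mki67 median, 19 were called, where 1.43% of all genes were. Rrm1 kept a slope of 0.24 ± 0.03 there (limma adjusted p 4.91e-08). Pola2 was called without the 3 arrays, with a slope of 0.15 ± 0.033 (limma adjusted p 0.00256). Cell type markers moved with Mki67 too: over all 50 tumours, 7 of 10 luminal epithelial markers were called higher, and 10 of 10 endothelial, 8 of 9 adipocyte and 5 of 7 B and plasma cell markers lower. Also lower were 3 of 11 fibroblast and 2 of 8 T and NK cell markers, while 0 of 10 macrophage, 0 of 9 skeletal muscle and 0 of 9 skin and squamous markers were called. Without the 3 arrays, 2 macrophage markers were called lower and 0 markers of the other 8 lists were called in either direction, against 24 of 35 members.

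Other genes of the pathways moved with Mki67 to different degrees. Among 36 tested replication factors outside the members, 24 were called higher and 0 lower, and without the 3 arrays 14 and 0. The steepest were Ticrr, which brings Cdc45 to origins, at 0.37 ± 0.04 log2 per SD (limma adjusted p 9.98e-10), the histone chaperone Asf1b at 0.32 ± 0.041 (9.85e-08) and Dbf4, the activator of the kinase Cdc7, at 0.26 ± 0.042 (1.09e-05). The lowest slopes were those of Pold4, Orc3 and Pole3, from -0.081 to -0.03, and 0 of these 3 were called. In nucleotide supply outside the members, 13 of 32 tested genes were called higher and 1 lower, and without the 3 arrays 3 and 0. Tk1 was steepest at 0.34 ± 0.044 (limma adjusted p 8.73e-08), followed by the deoxycytidine kinase Dck at 0.28 and the folate enzyme Shmt1 at 0.22. Dguok, the mitochondrial deoxyguanosine kinase, was the 1 called lower, at -0.074 ± 0.025 (limma adjusted p 0.0288), a call lost without the 3 arrays. The next lowest slopes, of Samhd1 and Ctps2, were -0.063 and -0.062 and were not called. All 16 tested mitotic genes were called higher, with a median slope of 0.478, against 0.202 for the members. They ran from 0.33 for Cdc20 and Aurkb and 0.39 for Birc5 to 0.56 for Top2a and 0.58 for Tpx2, a spindle assembly factor.

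The level of E2f1, which encodes a known activator of many of these genes, was used next in the same way. It ran from 5.78 log2 in mid54, through 6.14, to 6.8 in mid105. Of 35 members, 22 were called higher with E2f1 and 0 lower (0 also at an unadjusted p under 0.05), where 1.63% of all genes tested were called higher and 0.172% lower. Mcm10 had the smallest adjusted p of all members, with a slope of 0.28 ± 0.033 log2 per SD of E2f1 (limma adjusted p 1.1e-06). Rrm2 was steepest at 0.41 ± 0.081 (limma adjusted p 0.00215). Cdc6 (0.28 ± 0.045), Gins1 (0.27 ± 0.043) and Pcna (0.24 ± 0.037) had limma adjusted p-values of 0.000181, 0.00014 and 0.000117. Among the 13 that were not called were Orc1, Orc2, Orc6, Gins4 and Rfc1, which were not called with Mki67 either, and also Mcm7, Cdt1 and Tyms.

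Without the 3 arrays, 23 members were called higher with E2f1, where 1.83% of all genes were. Without mid105 and mid114, the tumours with the most E2f1, 15 were, where 0.627% of all genes were. On ranks over tumours 8 were, where 0.338% of all genes were. With Mki67 in the same fit 3 were, Gins1, Mcm10 and Pcna, where 19 of all genes (0.105%) were. At an unadjusted p under 0.05, 28 members were higher on ranks and 21 with Mki67 in the fit. E2f1 itself was called higher with Mki67 (slope 0.11 ± 0.03, limma adjusted p 0.00758). Relations to E2f1 and to Mki67 were therefore not independent over these tumours. Of 36 other replication factors, 14 were called higher with E2f1, of 32 nucleotide genes 3, and of 17 mitotic genes 13. No marker of the 9 cell type lists was called in either direction with E2f1 over all tumours, and 1 macrophage marker was called lower without the 3 arrays.

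**Figure D3:**
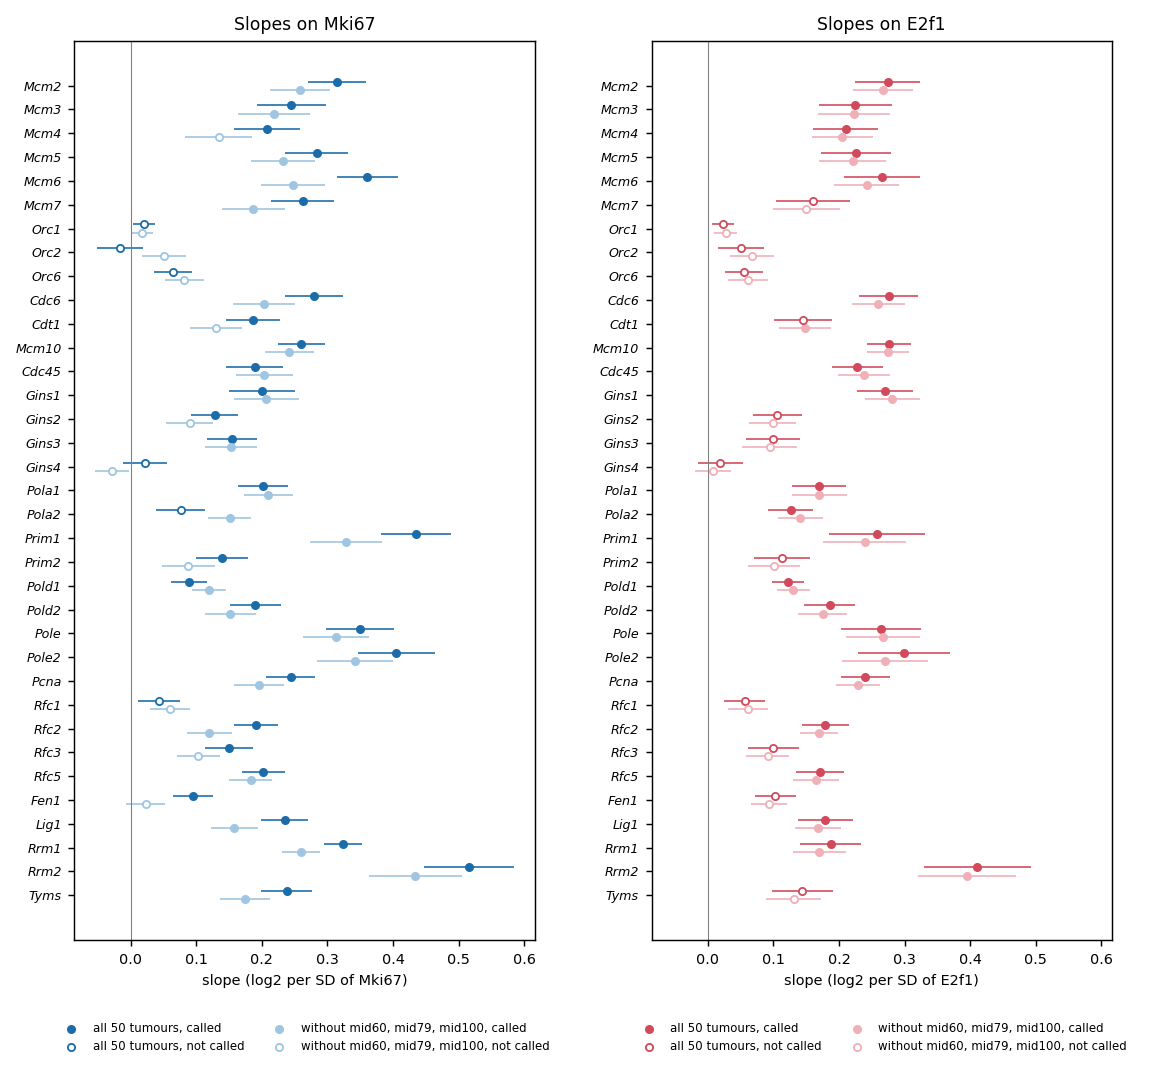
Slopes of the 35 members on Mki67 (left) and E2f1 (right), in log2 per SD of that gene, with bars for the SE; dark symbols are all 50 tumours, pale symbols leave out mid60, mid79 and mid100, and filled symbols have a limma adjusted p under 0.05. Rrm2 is steepest in both panels, at 0.52 and 0.41, while Orc1, Orc2, Gins4 and Rfc1 stay near 0.

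Cdkn1a, which encodes the p21 inhibitor that binds Cdk2 and Pcna, varied widely, and few genes of any kind were called with it. It ran from 6.68 log2 in mid87, through 9.27, to 10.87 in mid177, a wider spread than any member's (SD 0.76 log2). By limma, 0 of 35 members were called higher and 0 lower with it, where 0.0388% and 0.0166% of all genes tested were. These counts are close to those shares and do not set the members apart. The median slope was 0.005 log2 per SD of Cdkn1a over members and -0.004 over all genes. At an unadjusted p under 0.05, 0 members were higher and 1, Gins4, was lower (slope -0.073 ± 0.033, limma adjusted p 0.381).

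Erbb2, the oncogene of the model, ran from 9.02 log2 in mid60 and 9.25 in mid79, through a median of 11.71, to 11.94 in mid101. Of 35 members, 16 were called higher with Erbb2 and 0 lower (0 also at an unadjusted p under 0.05), where 16.6% of all genes tested were called higher and 14.7% lower. Gins4 had the smallest adjusted p, with a slope of 0.15 ± 0.027 log2 per SD of Erbb2 (limma adjusted p 2.95e-05). Pole2 was steepest at 0.31 ± 0.069 (limma adjusted p 0.000405). Without mid60 and mid79, 0 members were called (5 at an unadjusted p under 0.05), where 0.2% of all genes were called higher. Gins4 then had a slope of 0.027 ± 0.028 (limma adjusted p 0.653) and Pole2 one of 0.16 ± 0.071 (0.224). The calls of the members with Erbb2 thus rest on those 2 tumours, as do most calls over all genes. Markers of several other cell types were high in 1 or both of them. Skin and squamous markers lay a mean of 4.33 log2 above their medians in mid60 and 0.08 in mid79. Skeletal muscle markers stayed near their medians, at 0.1 and 0.06 log2 above. Over all tumours, 9 of 9 adipocyte, 9 of 9 skin and squamous, 10 of 10 endothelial and 7 of 7 B and plasma cell markers were called lower with Erbb2. So were 7 of 11 fibroblast, 6 of 8 T and NK cell and 4 of 10 macrophage markers, but 0 of 9 skeletal muscle markers. Without the 3 arrays, which leaves out mid100 too, 0 of each were called lower, where 0.105% of all genes were. Luminal markers lay a mean of 0.97 log2 above their medians in mid60 and 2.57 log2 below (-2.57) in mid79. The part of these cells in the result was not tested.

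**Figure D4:**
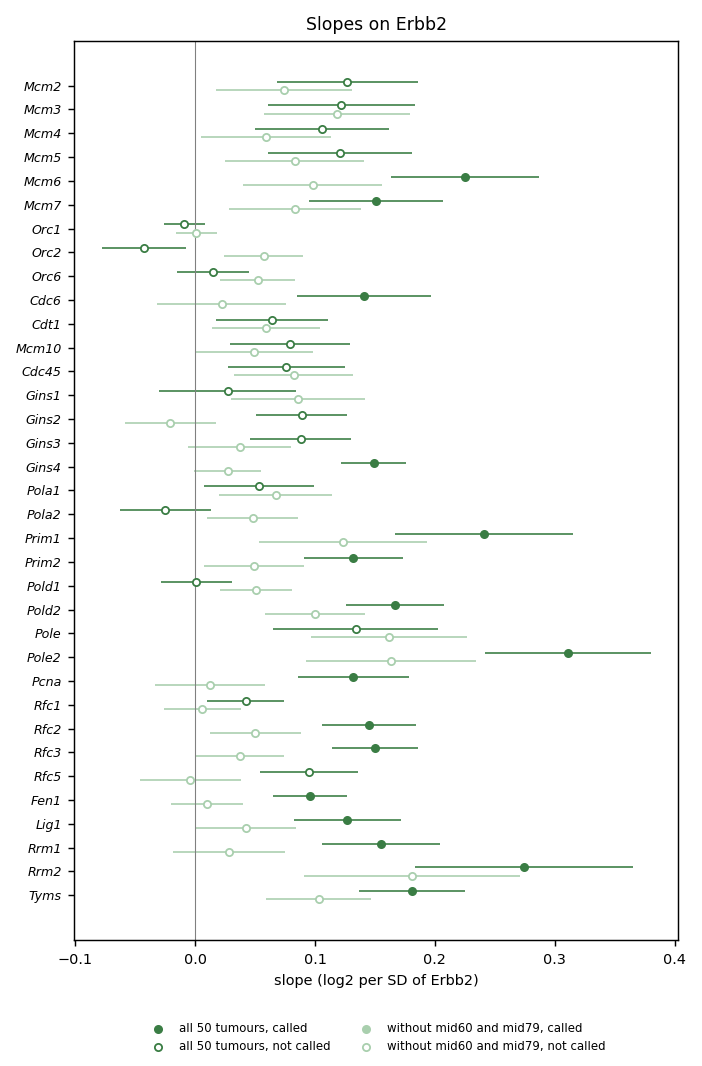
Slopes of the 35 members on Erbb2, in log2 per SD, with bars for the SE; dark green is all 50 tumours, pale green leaves out mid60 and mid79, and filled symbols have a limma adjusted p under 0.05. Of 35 members 16 are filled in dark green and 0 in pale green.

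Few members were called with Col1a1, from which the matrix content of a biopsy was read. Col1a1 ran from 7.16 log2 in mid115, through 9.45, to 12.3 in mid9. By limma 0 of 35 members were called higher with it (0 also at an unadjusted p under 0.05) and 1 lower, where 8.11% and 5.63% of all genes tested were. The median slope was -0.019 log2 per SD of Col1a1 over members, close to -0.015 over all genes. The 1 member called lower was Gins4, with a slope of -0.091 ± 0.032 log2 per SD of Col1a1 (limma adjusted p 0.0491). That call was lost without mid60, mid79 and mid100.

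Single tumours stood out across roles. With a tie counted for 1 tumour, mid7 was the highest of 50 for 12 members and mid85 for 10, including Pcna and 4 MCM subunits. Tumour mid105 was highest for 6, among them Rrm1, Mcm10 and Pole2, and mid47 for 4. In mid105 all 35 members lay above their medians over tumours, in mid85 34 did, and in mid7 33. These 4 tumours had Mki67 between 10.43 and 10.83 log2, against a median of 10.12. At the other end, mid79 was lowest for 23 members, with 3 members above their medians, and its luminal markers lay a mean of 2.57 log2 below their medians (-2.57). In mid54, which had Mki67 at 8.75 log2 and luminal markers a mean of 0.46 log2 below their medians (-0.46), 1 member lay above its median, Gins4 at 9.03 log2. In mid42, with Mki67 at 10.38 log2, 0 members lay above their medians.

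Where a gene lies also went with its level in some tumours. For each tumour and chromosome, the shift is the median deviation of the other expressed genes of that chromosome from their medians, relative to the tumour's other chromosomes. Over the 9 chromosomes with at least 2 members there were 13 combinations of tumour and chromosome with a shift of at least 0.3 log2 up or down, in 11 tumours. In 13 of these 13, the median deviation of the members on that chromosome lay on the side of the shift, compared with that of the other members in the same tumour. At a limit of 0.2 log2 it was 30 of 30, and over all combinations, most with shifts near 0, it was 254 of 450. Deviations were not scaled to the SD of a gene. The limits were chosen after the values were seen, and what lies behind the shifts was not tested.

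Chromosome 5 holds Mcm7, Pole, Rfc1, Rfc2, Rfc3, Rfc5 and Tyms. Its shift was 0.52 log2 in mid177, 0.37 in mid7 and 0.32 in mid114, as medians over 695 other genes. In mid7 all 7 of these members were at their highest of 50 tumours, with a median deviation of 0.9 log2, against 0.58 for the other members of that tumour. In mid177 their median deviation was 0.27 log2, against -0.29 for the other members of that tumour. In mid114 the median deviation was 0.3 log2, against 0.02 for the others. Rfc1 followed these shifts most plainly, with 8.74 log2 in mid7, 8.59 in mid177 and 8.28 in mid114 as its 3 highest values.

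**Figure D5:**
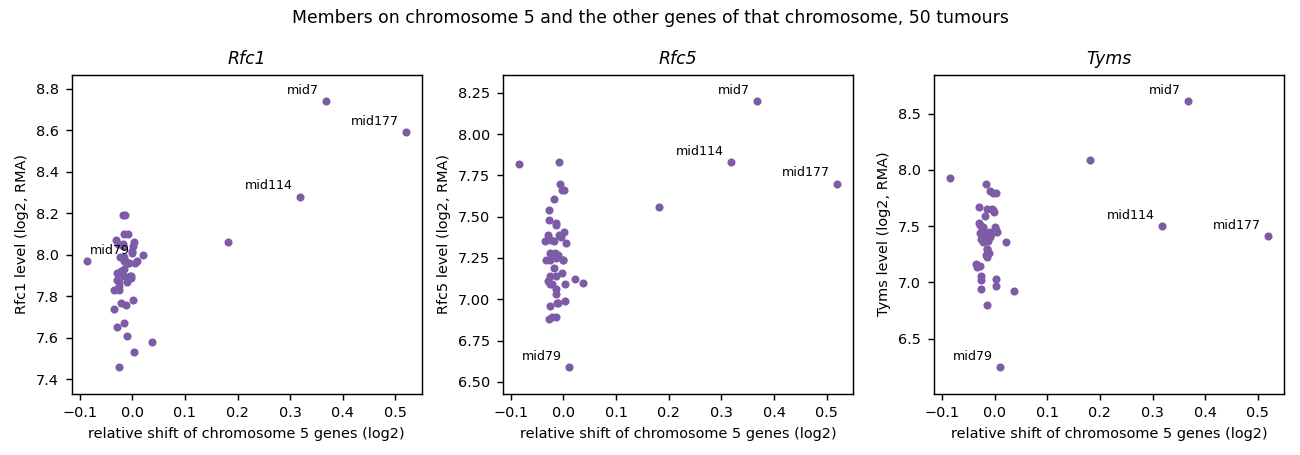
Levels of Rfc1, Rfc5 and Tyms (vertical axes, log2) in 50 tumours against the relative shift of the other genes on chromosome 5 (horizontal axes, log2). The tumours mid7, mid114 and mid177 lie to the right at shifts of 0.37, 0.32 and 0.52, and they are the 3 highest for Rfc1 but not for Tyms, for which mid177 is at 7.41 log2, close to the median of 7.44.

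Downward shifts were matched in the same way. In mid125 the shift of chromosome 8 was -0.4 log2, and its 6 members, Mcm5, Orc6, Cdt1, Gins2, Gins3 and Gins4, had a median deviation of -0.34 log2, against 0.21 for the other members. Orc6 at 6.53 log2 was at its lowest of 50 tumours there, and Gins2 at 6.21 log2 was next to lowest. In mid111 the shift of chromosome 7 was -0.46 log2, and Pold1, Lig1 and Rrm1 had a median deviation of -0.29 log2, against 0.31 for the others. On chromosome 12, which holds Pole2 and Rrm2, 5 tumours had shifts from 0.3 to 0.42 log2. In mid105, where all 35 members lay above their medians, Pole2 and Rrm2 had a median deviation of 1.34 log2, against 0.57 for the other members. These 2 genes vary widely over tumours, with SDs of 0.58 and 0.71 log2. In mid7, with a chromosome 12 shift of -0.033 log2, Pole2 was at 8.29 log2 and Rrm2 at 9.21, against 8.78 and 9.14 in mid105. In mid33, with a larger shift of 0.36 log2, Pole2 at 7.53 log2 and Rrm2 at 7.56 log2 lay below their medians of 7.56 and 7.68, and their median deviation was -0.07 log2, against -0.21 for the others. With each chromosome's shift subtracted, the median r between members was 0.661, against 0.617 as deposited, 0 of 595 pairs were below 0, and the median SD was 0.327 log2.

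Outside the list, the genes that followed the members most closely, by mean r over 50 tumours, were Uhrf1 at 0.71, which helps copy DNA methylation, then Dtl, which directs Cdt1 to destruction, the exonuclease Exo1 and Dut, which removes dUTP, each at 0.69. The checkpoint kinase Chek1 and the fork factor Wdhd1 were at 0.68, and Brca1, Chaf1b, Zwilch and Tonsl at 0.67. Without the 3 arrays the first 6 of these were again the 6 highest, with mean r from 0.68 to 0.7. Tk1 ranked 17 of 17988 genes at 0.66, Top2a 51 at 0.62 and Mki67 185 at 0.53, while Rrm2b ranked 8907 at 0.03.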

How the data were processed

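Total RNA was measured in 50 tumours, 1 array each. Per the labels, it was extracted with Trizol and 6 ug was labelled as biotinylated cRNA. The deposited values are log2 expression for 34472 probe sets after RMA, per the submitters' processing notes, which also name mm8 without its role. No version of RMA is named there. Quantile normalisation within RMA hides changes shared by most genes and low values are compressed.

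In the platform annotation 23521 probe sets name 1 gene, while 1814 name several and 9137 have no gene. Only the first kind was used, and 23328 of them matched the gene table by Entrez identifier. Genes with a mean under 4.09 log2 were left out, and 18023 were tested. Pole, Fen1 and Rrm2 have 2 probe sets each. Tyms has a further probe set shared with a pseudogene.

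Regressions used limma 3.58.1 in R 4.3.3 (lmFit, eBayes with trend) on 1 gene standardised over tumours, with Benjamini-Hochberg adjustment over all genes tested and a threshold of 0.05. Partner pairs used 100000 permutations, two-sided, adjusted over the 22 measured pairs. Promoter windows came from RefSeq on GRCm38.p6, not on mm8. The regressions were tested on simulated data. Permutations and motif searches ran in Python 3.11.15 with numpy 2.4.6.

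The members, lists, pairs and tests were chosen with earlier results of these data known. The text names all members, the genes of the pairs, in each companion list the extremes by slope on Mki67, the predictors, the 10 outside genes with the highest mean r to the members and, for the 3 members with the lowest mean r, their 3 nearest genes. Tumours and further genes were named after their values were seen. The chromosome shifts, the limits on them and the removal of the part on Mki67 were added after seeing the data.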

Additional observations from a re-analysis of the deposited data

How the results depend on the processing

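The member counts for Mki67, E2f1, Cdkn1a, Erbb2 and Col1a1, the pair count, the median SD, the count with a 2-fold range and the median r were recomputed under the alternatives that apply to each: ranks, array weights, covariates and the 2 tumours farthest from the predictor only for the regressions, and filters on low genes for all but the pairs. Of the recomputed values, 122 stayed within 1.5 times the count or within 1 SD of the value, 14 did not and 0 changed direction. Many of the 122 are counts of 0 that stayed 0, among them all those for Cdkn1a. The fall from 22 to 15 for E2f1 without mid105 and mid114 is also among the 122. For Erbb2, 0 members were higher on ranks, with array weights, without the 3 arrays mid79, mid60 and mid100, or without mid60 and mid79, with 6, 7, 4 and 5 at an unadjusted p under 0.05, and 3 with Mki67 as a covariate (Gins4, Pole2 and Rfc3), against 16. In the 4 settings with 0 members, 0.444%, 1.67%, 0.0555% and 0.2% of all genes were called higher, against 16.6%. With Mki67 as a covariate 11.6% of all genes were, so the 3 members called there do not stand out. For E2f1, 8 were higher on ranks and 3 with Mki67 as a covariate, against 22 (28 and 21 at an unadjusted p under 0.05). For Mki67, 19 were higher without mid79 and mid54, against 29. For Col1a1, 0 were lower with no filter on low genes, on ranks, with array weights, without the 3 arrays, without mid9 and mid115, or with Mki67 as a covariate, against 1 (2, 3, 0, 0, 2 and 1 at an unadjusted p under 0.05). Apart from the tumours left out by construction, the cause was not tested. The count of members with a 2-fold range lay between 16 and 19. No paired analysis was possible because all 50 tumours form 1 group. Values near the low limit, such as those of Orc1, limit what spread can be seen.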

Other observations

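The RB and E2F genes that govern entry into S phase did not move as 1 block. Of 26 tested, 14 were called higher with Mki67 by limma and 1 lower, where 9.01% and 7.54% of all genes tested were, and without the 3 arrays that stand apart 9 were higher and 1 lower. Ccna2, the cyclin of S phase and mitosis, was steepest at 0.49 ± 0.038 log2 per SD of Mki67 (SE, n = 50, limma adjusted p 1.44e-14), followed by the repressor E2f8 at 0.42 ± 0.043 (9.04e-11) and Ccnd1, the cyclin that acts with Cdk4, at 0.32 ± 0.068 (0.000803). Rb1, which restrains E2F factors, was the 1 called lower, at -0.24 ± 0.069 (limma adjusted p 0.0114), and the next lowest slopes, of Cdkn1a at -0.089 and Rbl2 at -0.021, were not called. The Rb1 relative Rbl1 was called higher at 0.21 ± 0.043 (0.000604). With E2f1, 7 of 25 were called higher, led by E2f8 at 0.31 (limma adjusted p 0.00145), Ccna2 at 0.29 (0.00827) and Rbl1 at 0.25 (0.000117).

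For the 3 members that followed the others least over 50 tumours, the nearest genes were as follows. Without the 3 arrays Orc2 was not among the lowest 3, with a mean r of 0.46 against 0.3 for Rfc1. Gins4 correlated at 0.82 with Atl1, 0.8 with Mpp6 and 0.79 with Plekhb1 over 50 tumours, and at 0.71 with Atl1 without the 3 arrays. Orc2 correlated at 0.72 with Zbtb41 and 0.68 with Wdr75, which lie on chromosome 1 as Orc2 does, and at 0.66 with Immt. Without the 3 arrays Nop58, also on chromosome 1, was nearest to Orc2 at 0.79. For Orc1 the nearest were Nasp, Rps7 and Ndc1, each at 0.53, and without the 3 arrays Rps7 and Cby1 at 0.53 and Ap1ar at 0.52. These genes were picked as the closest of all genes, so the values are descriptions with no test.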
